A study of Homo sapiens with 6 samples.

Results

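The ribosomal RNAs of the human mitochondrion, 12S rRNA (gene MT-RNR1, ENSG00000211459.2) and 16S rRNA (gene MT-RNR2, ENSG00000210082.2), were examined position by position for the signal that Nm-mut-seq reads as 2′-O-methylation (Nm). Members were taken by coordinate from the positions listed in the series, and a position is listed only if it has reads with T. They are the listed positions on the plus strand of chrM of hg38 from 648 to 1601 for MT-RNR1 and from 1671 to 3229 for MT-RNR2. This gave 1059 of the 387463 positions listed in the series, 274 in MT-RNR1 and 785 in MT-RNR2.

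RNA came from HepG2, a human liver cancer cell line, as chromatin-associated RNA (caRNA), the RNA left with the chromatin pellet after cell and nuclear lysis. rRNA was depleted with a RiboMinus kit, and each of 3 biological replicates was ligated to adapters and divided into 2 portions for reverse transcription. The imbalanced dNTP portion (n = 3 libraries) held 1 mM dATP and 2 µM of each of the other nucleotides, and the balanced dNTP portion (n = 3) held 1 mM of all, so that it served as input. No group carried a further treatment, and all libraries came from 1 cell line. The mutation ratio is the percentage of reads that carry T at a position whose reference base is G, A or C. A position with reference U cannot be listed, because U is read as T with or without a mutation.

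Each mitochondrial ribosome is built on a 12S rRNA in its small subunit and a 16S rRNA in its large subunit, both transcribed from the heavy strand of the mitochondrial genome. Their modifications are few and are placed by enzymes that act on single positions. In 16S rRNA, MRM1, MRM2 and MRM3 are 2′-O-methyltransferases, TRMT61B forms N1-methyladenosine (m1A), which blocks the base-pairing face of adenosine, and RPUSD4 forms a pseudouridine. In 12S rRNA, TRMT2B, METTL15, NSUN4 and TFB1M methylate bases rather than the ribose.

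The known modified positions of 16S rRNA are shown here because the results turn on them. Each sequence is the plus strand of hg38 with 14 bases on each side, and the capital marks the modified base.
m1A947 (chrM:2603-2631): cacttgttccttaaAtagggacctgtatg
Gm1145 (chrM:2801-2829): aaaaatttcggttgGggcgacctcggagc
Um1369 (chrM:3025-3053): attaaaggttcgttTgttcaacgattaaa
Gm1370 (chrM:3026-3054): ttaaaggttcgtttGttcaacgattaaag
pseudouridine 1397 (chrM:3053-3081): agtcctacgtgatcTgagttcagaccgga

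Gm1370 is the MRM3 position in the loop where 16S rRNA contacts aminoacyl-tRNA. It had the highest mutation ratio of the well-covered positions of both rRNAs, and its ratio depended on the nucleotide mixture. Under imbalanced dNTP, 59 of 147, 53 of 124 and 76 of 187 reads carried T in replicates 1, 2 and 3. The mutation ratio was 40.1%, 42.7% and 40.6%, with a mean of 41.2% ± 1.38 (SD, n = 3). The balanced libraries gave 12 of 1019, 5 of 694 and 9 of 959 reads, a mean of 0.946% ± 0.229 (SD, n = 3). All imbalanced libraries lay far above all balanced ones. The log2 change given throughout compares the ratio of mutated to unmutated reads, imbalanced over balanced. It is not a ratio of the percentages. At Gm1370 the log2 change was 6.13 ± 0.32 (SE, edgeR quasi-likelihood test, Benjamini-Hochberg adjusted p = 1.74e-78). Gm1370 ranked 1 of the 441 positions of 16S rRNA read at least 100 times in each imbalanced library.

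Gm1145, the MRM1 position, was mutated about as reproducibly but to a lower level. Replicates 1, 2 and 3 held 19 T reads of 177, 13 of 116 and 22 of 218 under imbalanced dNTP. These are mutation ratios of 10.7%, 11.2% and 10.1%, with a mean of 10.7% ± 0.560 (SD, n = 3). The balanced mean was 0.341% ± 0.177 (SD, n = 3), from 7 T reads among 1946 in the 3 libraries together. Both groups were again separate. The log2 change was 4.96 ± 0.58 (SE, edgeR, adjusted p = 6.53e-17), and the ratio ranked 5 of 441. The libraries of Gm1145 and Gm1370 did not overlap in mutation ratio under imbalanced dNTP, and that difference between positions was not tested.

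m1A947, the TRMT61B position, carried T in most of the reads that covered it, whichever mixture was used. The imbalanced libraries held 38 T reads of 57, 35 of 55 and 52 of 73, and the mutation ratio averaged 67.2% ± 3.82 (SD, n = 3). The balanced libraries held 180 of 245, 109 of 176 and 185 of 262, and averaged 68.7% ± 6.01 (SD, n = 3). The groups overlapped, and the paired difference, imbalanced minus balanced, was -6.80, 1.70 and 0.622 percentage points. The log2 change was -0.10 ± 0.41 (SE, edgeR, adjusted p = 0.810), with a 95% interval from -0.90 to 0.70. The position therefore did not pass the criteria for a site. Its depth of at most 73 in the imbalanced libraries also left it out of the ranks by depth.

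Reads with bases other than A and T were found at m1A947 as well. Of the imbalanced reads they made up 2.73% ± 2.73 (SD, n = 3), and of the balanced reads 5.42% ± 1.23 (SD, n = 3). C was the more frequent of these under balanced dNTP, with 7, 10 and 13 reads against 3, 0 and 4 reads of G. At Gm1370 no imbalanced library held a read with A or C, which over the 458 imbalanced reads allows a share of up to 0.655% in counting error.

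**Figure D1:**
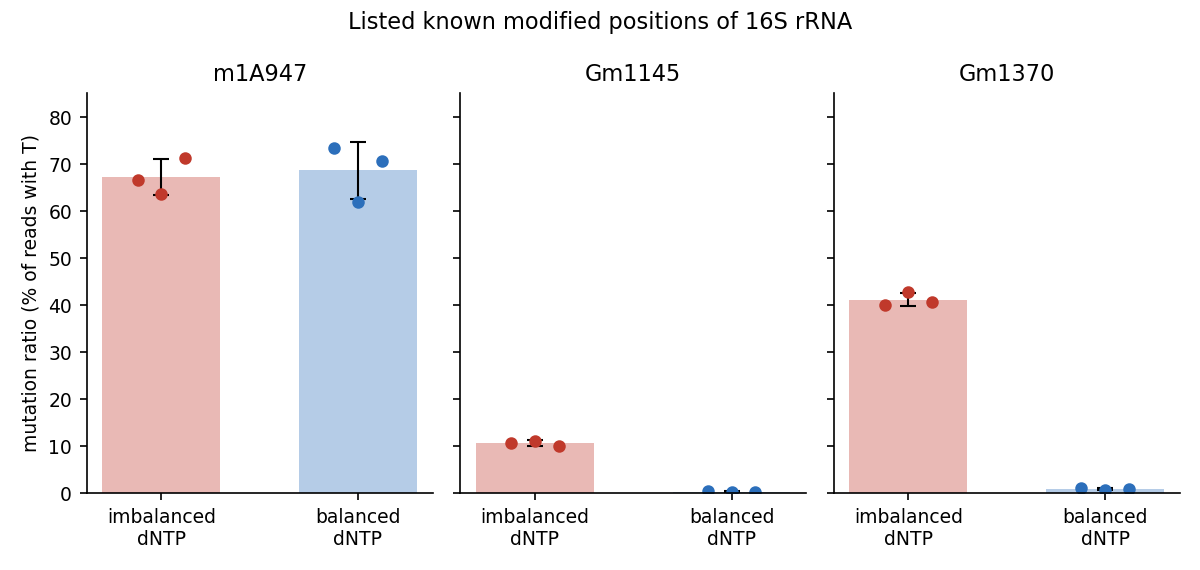
Mutation ratio (percentage of reads with T) at the 3 known modified positions of 16S rRNA that were listed, under imbalanced and balanced dNTP. Points are the 3 libraries, bars their mean and error bars the SD. m1A947 lies near 67.2% and 68.7% in the 2 conditions, while Gm1145 and Gm1370 are high only under imbalanced dNTP, at 10.7% and 41.2%.

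Um1369, made by MRM2 directly before Gm1370, and pseudouridine 1397 have U as reference and were not listed. Their neighbours were. Within 3 nt of the Um and Gm pair, the only other listed position was G at 1366, with a mean ratio of 1.60% ± 0.555 (SD, n = 3) under imbalanced dNTP. Around pseudouridine 1397, G at 1398 was the highest listed neighbour, with 50 of 484, 36 of 421 and 45 of 574 T reads. Its mean was 8.91% ± 1.28 (SD, n = 3). Its balanced mean was 0.133% ± 0.0723 and its log2 change 6.03 ± 0.45 (SE, edgeR, adjusted p = 1.95e-39). The base before the pseudouridine, C at 1396, was lower at 2.44% ± 0.873. A at 1394, A at 1399 and G at 1400 had means of 1.11%, 0.470% and 0.687%. Beside Gm1145, the G at 1144 and the G at 1147 had means of 3.91% ± 1.19 and 3.42% ± 0.609, both under the level of Gm1145 in every replicate. Near m1A947 no other position within 3 nt was listed under imbalanced dNTP.

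The known modified positions of 12S rRNA gave no measurement. None of the 5 (m5U429, m4C839, m5C841 and the dimethylated adenosines m62A936 and m62A937) was listed in either table. m5U429 has U as reference. No position from 401 to 700 and none from 901 to 954 of 12S rRNA was listed under imbalanced dNTP, and from 801 to 900 there was 1. The nearest listed position to m4C839 was 52 nt away, at depths from 8 to 24. These sites are base methylations, and their absence from the tables says nothing about their level.

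Coverage set what could be read elsewhere too. Of the G, A and C positions, 208 of 749 (27.8%) were listed under imbalanced dNTP in 12S rRNA and 640 of 1214 (52.7%) in 16S rRNA. The median depth at listed positions of 12S rRNA was 120, 111 and 158 reads in the imbalanced libraries and 311, 200.5 and 253.5 in the balanced ones. In 16S rRNA it was 166.5, 133 and 205.5, and 464, 328.5 and 413. Depth was highest near the 3′ end of 16S rRNA, with medians of 546, 489 and 647 imbalanced reads from 1401 to 1500. All 75 G, A and C positions from 1401 to 1500 were listed under imbalanced dNTP, against 2 of 79 from 801 to 900. Between replicates, the reads with T at positions of depth 100 or more scattered 1.22 times as much as binomial counting under imbalanced dNTP (mean chi-square per degree of freedom, 542 positions) and 1.07 times under balanced dNTP (499 positions).

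**Figure D2:**
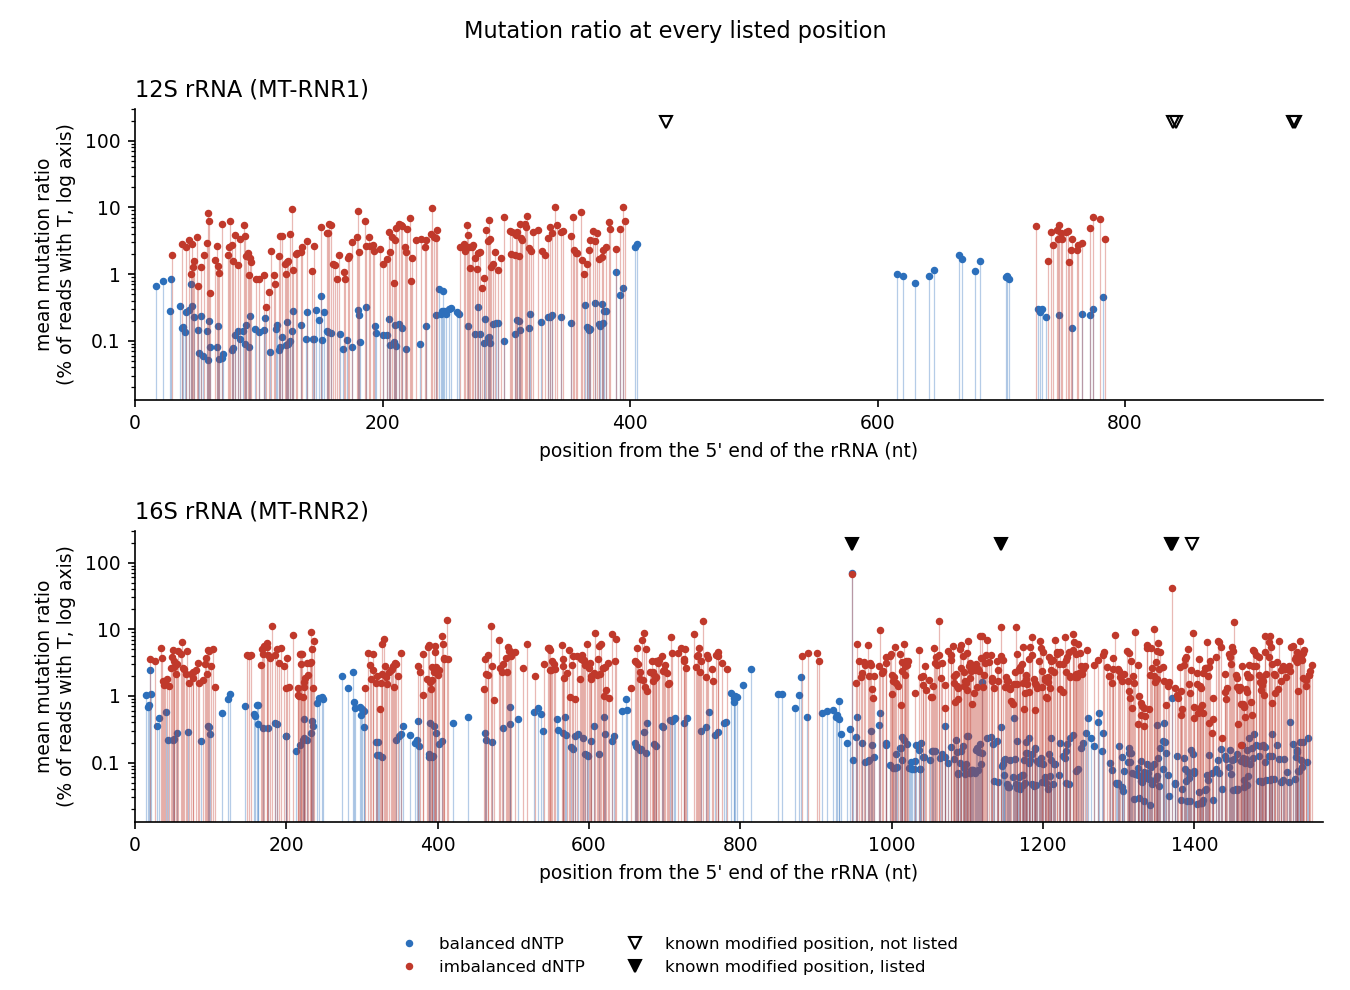
Mean mutation ratio of the 3 libraries (percentage of reads with T, log axis) at every listed position read 10 times or more, against the distance from the 5′ end of 12S rRNA (top) and 16S rRNA (bottom). Filled triangles mark known modified positions that were listed and open triangles those that were not. m1A947 is high in both conditions, Gm1370 only under imbalanced dNTP, and 12S rRNA has listed positions in 2 stretches under imbalanced dNTP.

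At positions listed in both tables, the share of reads with T was higher under imbalanced dNTP by a similar amount in both rRNAs. Summed over the 96 positions of 12S rRNA listed in both tables at a depth of at least 10, the share was 3.24%, 3.20% and 2.77% under imbalanced dNTP and 0.156%, 0.192% and 0.143% under balanced dNTP. Over the 321 such positions of 16S rRNA it was 2.91%, 3.18% and 2.93%, against 0.191%, 0.208% and 0.213%. The difference, imbalanced minus balanced, was 2.91 ± 0.248 percentage points in 12S rRNA and 2.80 ± 0.146 in 16S rRNA (SD, n = 3, positive in 3 of 3 replicates). The exact two-sided sign-flip permutation test gave p = 0.25 for each, the smallest value that 3 pairs allow. Single positions were tested in the edgeR fit over 32284 positions, in which 73.9% were higher under imbalanced dNTP. In 12S rRNA 71 of 96 positions (74.0%) were higher and in 16S rRNA 276 of 321 (86.0%). None was lower (edgeR, and 0 by DESeq2 and by Fisher's exact test), where 0.0558% of all positions were, and 0 of the 417 tested positions of both rRNAs had a negative change at an unadjusted p under 0.05. The 1 negative change among the 417 was that of m1A947. A position was listed with at least 3 T reads in 1 imbalanced library, but with only 1 T read in 1 balanced library. This rule favours positions that are high under imbalanced dNTP. The rise in share, the counts of higher positions and the lack of lower ones were therefore in part set by the listing, as was the 73.9% over all positions. Leaving out replicate 1, 2 or 3 in turn gave 32, 31 and 24 higher positions in 12S rRNA, and the share over all tested positions fell with it, to 54.2%, 56.4% and 55.7%. The median log2 change of the tested positions was 3.54 in 12S rRNA, 4.11 in 16S rRNA and 3.94 over all positions. Where each of the 6 libraries held 50 reads or more, 85.6% of the tested positions of both rRNAs and 91.5% of all tested positions were higher, so that the order of the members and the background turned with depth.

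The criteria for a site, as far as applied here, were at least 10 reads and 3 with T in each imbalanced library, and a ratio over 3 times that of its input. Under them 64 positions of 12S rRNA and 294 of 16S rRNA passed. That is 30.8% and 45.9% of their listed positions, where 16.8% of all listed positions of the series passed, or 29651. The study also set a minimum ratio relative to a spike-in background, which was not used here. The passing positions are therefore not sites in the sense of the study. At depths of at least 100 in each imbalanced library, 42.6% of 101 positions in 12S rRNA and 61.0% of 441 in 16S rRNA passed, against 75.8% of all such positions. The passing positions were thus more frequent than the background over all depths and less frequent at high depth. Of the 294 in 16S rRNA, 65 were G, 110 A and 119 C. The mean ratio of a passing position was low, with a median of 4.33% in 12S rRNA and 3.51% in 16S rRNA. A mean of 10% or more was reached by 1 position of 12S rRNA and 9 of 16S rRNA, of which 8 were G. For 31 and 100 of the passing positions the balanced table listed no reads with T, and the input was taken as 0.

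G and C positions were mutated more than A positions. Over listed positions at a depth of at least 10, the share of reads with T under imbalanced dNTP in 16S rRNA was 3.28% ± 0.253 at G, 3.14% ± 0.137 at C and 2.53% ± 0.108 at A (SD, n = 3). In 12S rRNA it was 3.25% ± 0.168, 3.36% ± 0.0801 and 2.50% ± 0.236. G exceeded A in every replicate, by 0.742 ± 0.0855 percentage points in 12S rRNA and 0.753 ± 0.151 in 16S rRNA (exact permutation test, p = 0.25, the smallest possible). G minus C was -0.113 ± 0.176 in 12S rRNA (exact permutation p = 0.500) and 0.146 ± 0.117 in 16S rRNA (exact permutation p = 0.25). Without the known modified positions G minus C in 16S rRNA was -0.0580, so in the summed reads its sign rested on them. As a mean of the positions' ratios, with the known positions kept, it was 0.541 ± 0.111. The share of 16S minus that of 12S rRNA was -0.0465 ± 0.0956 percentage points, within the spread between replicates (exact permutation p = 0.750).

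The rRNAs were also set beside the 12 protein-coding transcripts of the same mitochondrial strand and beside NEAT1, the nuclear noncoding RNA with many listed positions. The share of reads with T under imbalanced dNTP was 2.92% ± 0.145 in both rRNAs together, 4.59% ± 0.283 in the mitochondrial mRNAs and 3.43% ± 0.135 in NEAT1 (SD, n = 3). It was lower in the rRNAs than in the mRNAs by 1.67 ± 0.236 percentage points, and lower than in NEAT1 by 0.515 ± 0.0150, in 3 of 3 replicates each (exact permutation test, p = 0.25, the smallest possible). With the mean of the positions' ratios in place of summed reads, the difference from NEAT1 was -0.195 ± 0.0231. The mRNAs also held more T without the imbalanced mixture. Over the 64 mRNA positions listed in both tables the share was 5.65% ± 0.175 under imbalanced and 2.58% ± 0.226 under balanced dNTP, where the 417 rRNA positions had 3.01% ± 0.147 and 0.199% ± 0.0105. Most of the balanced T of the mRNAs lay at the 33 C positions, with 4.69% ± 0.365. A C that is T in the mitochondrial DNA of these cells would be counted there. The mRNAs were not searched for positions at which most reads differ from the reference base. The 14 G positions had 0.325% ± 0.136 and the 17 A positions 0.435% ± 0.194. Whether the rise from balanced to imbalanced dNTP differed between them was not tested. In NEAT1 the balanced share was 0.118% ± 0.00779 over 10132 positions. Depth differed as well. The median of the lowest imbalanced depth was 125 in the rRNAs, 34 in the mRNAs and 283 in NEAT1, and a position with few reads is listed only with a high ratio. Among positions read 50 times or more the difference from the mRNAs was -1.13 ± 0.105.

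Several positions with no known modification came close to or above Gm1145. Those printed here, with the base in capitals, are the 2 highest unannotated G and the highest C of 16S rRNA and the highest G of 12S rRNA among positions read at least 100 times in each imbalanced library.
G1062 of 16S rRNA (chrM:2718-2746): cgagaagaccctatGgagctttaatttat
G1453 of 16S rRNA (chrM:3109-3137): tcaaattcctccctGtacgaaaggacaag
C1164 of 16S rRNA (chrM:2820-2848): acctcggagcagaaCccaacctccgagca
G127 of 12S rRNA (chrM:760-788): aagcacgcagcaatGcagctcaaaacgct

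G1453, near the 3′ end of 16S rRNA and read at depths from 514 to 669, held 60 of 546, 87 of 514 and 75 of 669 T reads. Its mean ratio was 13.0% ± 3.37 (SD, n = 3) under imbalanced dNTP, and 3 of 2475 balanced reads carried T. The log2 change was 6.69 ± 0.45 (SE, edgeR, adjusted p = 1.26e-48). G1062 had ratios of 16.2%, 14.5% and 9.79% with a mean of 13.5% ± 3.34 and was not listed under balanced dNTP. C1164 had 12.9%, 12.3% and 7.42% with a mean of 10.9% ± 3.00, and 1 of 2037 balanced reads carried T (log2 change 7.40 ± 0.68, SE, edgeR, adjusted p = 2.52e-26). These libraries overlapped those of Gm1145, and all lay below those of Gm1370. Spread between replicates was wider at these positions than at Gm1145 or Gm1370. G1346 had a mean of 9.99% ± 2.21, and at G1062, C1164 and G1346 replicate 3 was the lowest.

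Some positions of lower depth had higher means. G412 of 16S rRNA, read from 54 to 91 times, lay above G1062 with an SD of 6.06, and G240 of 12S rRNA, read from 44 to 83 times, lay above G127 at 9.77% ± 4.50. Of the 101 positions of 12S rRNA at depth 100 or more, the highest was G127, with 9.63%, 10.1% and 8.99% and a mean of 9.57% ± 0.550 (SD, n = 3). The log2 change there was 6.05 ± 0.91 (SE, edgeR, adjusted p = 9.72e-11). It was followed by A180 at 8.84% ± 0.938, C59 at 8.13% ± 1.05, G298 at 7.16% ± 1.10 and G286 at 6.57% ± 2.58, with C222 between G298 and G286. At A180, from 4.92% to 12.9% of imbalanced reads and from 1.13% to 3.22% of balanced reads carried the reference base, and most carried neither A nor T, so the ratio there was not measured on an A in most molecules. The same held for 1 position of 16S rRNA, A1036, where at most 1.43% of imbalanced reads carried the reference base. Leaving out positions of this kind left 63 passing positions in 12S rRNA and 293 in 16S rRNA.

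Among the A and C positions of 16S rRNA at depth 100 or more, the highest A were A608 at 8.69% ± 1.01, A1295 at 8.20% ± 0.742 and A1117 at 8.02% ± 0.872. Each of the 5 highest A followed a U, as did 43 of all 185 A positions of 16S rRNA at that depth. After C1164 the highest C were C1119 at 7.96% ± 2.05, C1500 at 7.87% ± 1.09 and C1229 at 7.75% ± 1.32. C1119 differed from the others in its balanced libraries, where 9 of 483, 4 of 346 and 8 of 430 reads carried T, a mean of 1.63% ± 0.408. Beside m1A947 it had the highest balanced ratio among positions of 16S rRNA read 100 times or more in those libraries, ahead of Gm1370. Its log2 change of 2.36 ± 0.48 (SE, edgeR, adjusted p = 2.39e-06) was smaller than that of the other C named here. In 12S rRNA no position of that balanced depth had a balanced mean above 0.705%.

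The base before a position went with its level. Leaving out the known modified positions, G positions of both rRNAs at depth 100 or more had a median ratio of 5.45% after U (34 positions), 2.23% after C (28), 2.07% after G (20) and 1.34% after A (42). A positions had a median of 3.78% after U (53 positions) and from 1.31% to 1.83% after the other bases. At C positions the preceding base made less difference, with medians from 2.29% to 3.14%, while the following base did: 4.31% before C (69 positions), against 1.43% before G (21) and 1.91% before A (50). Of the 10 G positions that ranked in the first 5 of either rRNA, 7 follow a U (G1370, G1062, G1453, G1346, G127, G298 and G70). G286 and G119 follow a C, and Gm1145 follows a G. Over all G positions of both rRNAs at that depth, 35 of 126 follow a U. Of the 5 highest A of 12S rRNA, A213, A215 and A303 follow a U, A180 follows an A and A88 follows a C. NEAT1 had the same order at its extremes, with medians of 6.12% at G after U (1938 positions) and 1.43% at G after A (1124), and 4.66% at C before C (1080). Gm1145, at 10.7%, exceeded every other G after G of both rRNAs at that depth, of which the highest was 4.15%.

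**Figure D3:**
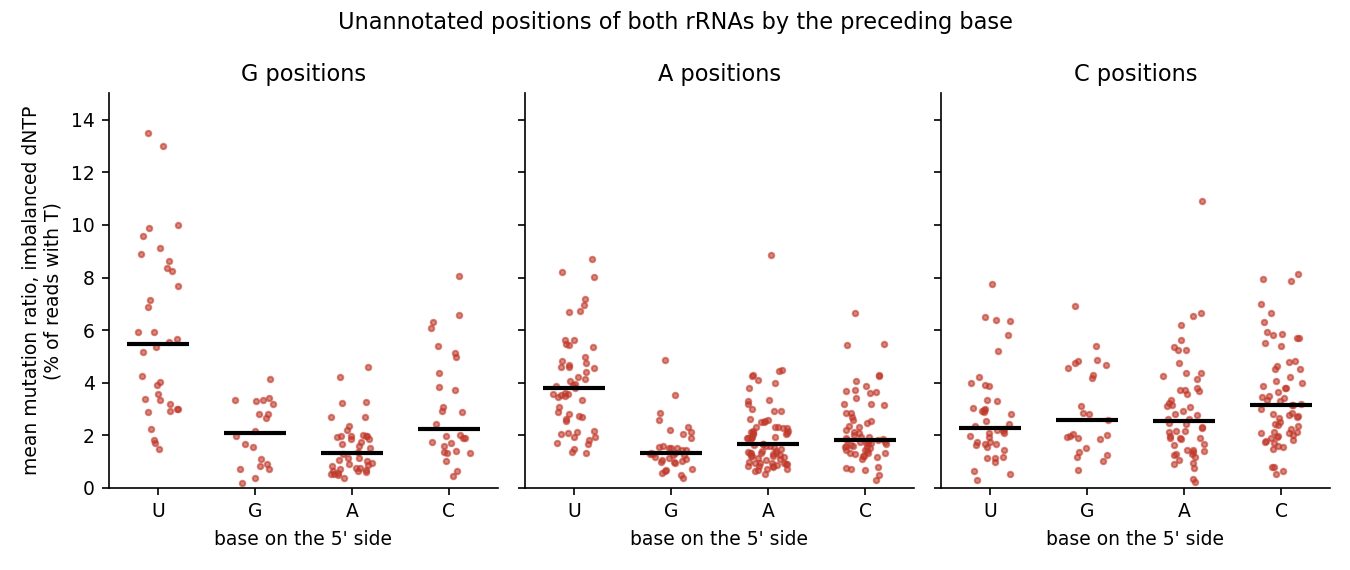
Mean mutation ratio under imbalanced dNTP (percentage of reads with T, n = 3 libraries) of G, A and C positions of both rRNAs without a known modification, at a depth of at least 100, by the base on their 5′ side. Each point is a position and each line a median. G after U has a median of 5.45% and G after A of 1.34%, and C positions differ less.

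The known sites were also examined for read depth. Depth is the denominator of the mutation ratio and is not independent of it. The depth under imbalanced dNTP was divided by that under balanced dNTP in each replicate and by the median of this quotient over the 321 positions of 16S rRNA listed in both tables. At Gm1370 this relative depth was 0.304, 0.302 and 0.293 in replicates 1, 2 and 3, the lowest of all 321 positions, with a mean of 0.300 ± 0.00570 (SD, n = 3). It was 0.453 ± 0.0688 at Gm1145, which ranked 10 of 321, and 0.479 ± 0.0552 at m1A947, which ranked 12.

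Among the listed positions around each methylated guanosine, relative depth was lowest at the guanosine and rose on both sides. Um1369, directly before Gm1370, was not listed, so the minimum there cannot be told apart between these neighbours. Around Gm1370 the median relative depth was 0.412 ± 0.0121 over the 10 listed positions up to 20 nt on its 5′ side and 0.498 ± 0.0252 over the 7 up to 20 nt on its 3′ side. From 41 to 60 nt it was 0.754 ± 0.0895 on the 5′ side and 1.02 ± 0.0202 on the 3′ side. Around Gm1145 it rose from 0.530 ± 0.0587 and 0.605 ± 0.0200 within 20 nt to 1.31 ± 0.0321 and 1.12 ± 0.0179 at 41 to 60 nt. On the 3′ side of m1A947 it was 0.765 ± 0.0540 within 20 nt, and no position in the 80 nt on its 5′ side was listed in both tables. The 20 lowest positions of 16S rRNA all lay within 25 nt of one of these sites, 14 near Gm1370, 5 near Gm1145 and 1 at m1A947, where 15.6% of the 321 positions lie. The window of 25 nt was chosen after the values had been seen. Neighbouring positions share reads and are not independent. G1062 and G1346 were not listed under balanced dNTP and have no relative depth. At 3 other unannotated positions with high ratios no such minimum was seen: the relative depth was 1.24 ± 0.122 at G1453 and 0.671 ± 0.0223 at C1164, and 0.967 ± 0.0101 at G127 against the median of 12S rRNA. C1164 lies 19 nt from Gm1145.

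**Figure D4:**
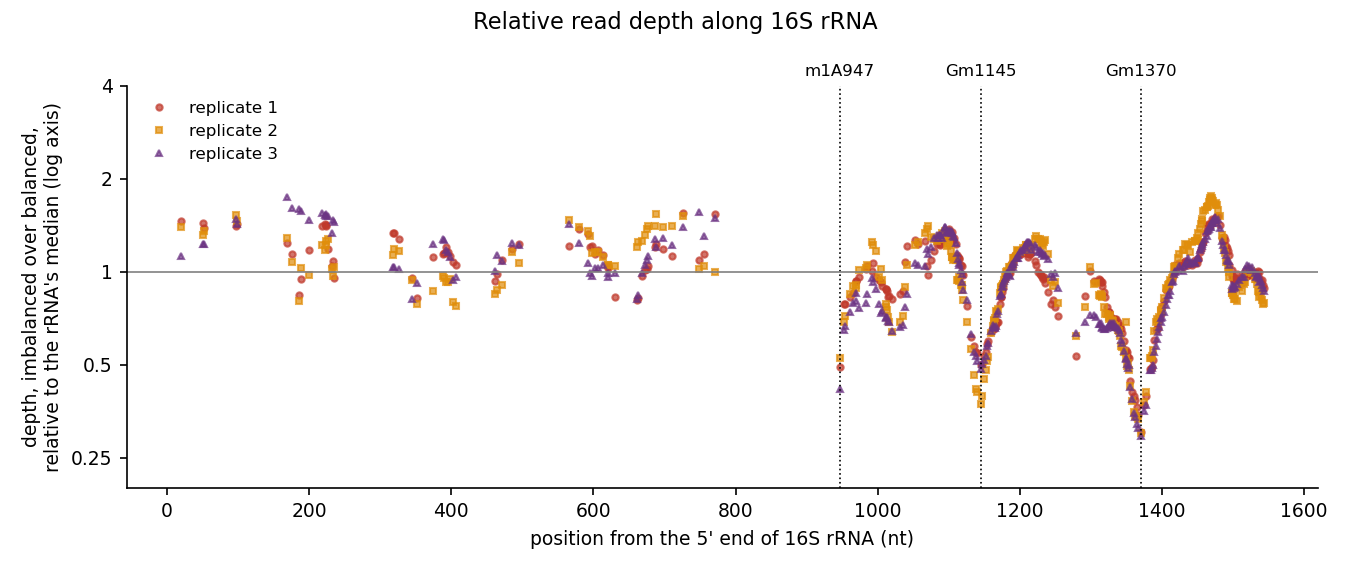
Read depth under imbalanced dNTP over that under balanced dNTP at the 321 positions of 16S rRNA listed in both tables, relative to the median of the rRNA in each replicate (log axis), against the distance from the 5′ end. Each symbol is 1 replicate. The lowest values lie at Gm1370, with a mean of 0.300, and a second minimum lies at Gm1145, with 0.453.

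The 12S rRNA took from 0.139% to 0.158% of the summed depth of all listed positions in each library and the 16S rRNA from 0.733% to 0.821%. Of 8 hepatocyte genes, 6 had listed positions under imbalanced dNTP, while PTPRC, COL1A1, PECAM1 and HBB, markers of blood, connective tissue and vessel cells, had none. NEAT1 and MALAT1, which stay at chromatin, had 13880 and 4892. Fewer copies of a transcript and less of it left in the chromatin pellet cannot be told apart in these libraries. Whether the rRNA depletion removed 12S and 16S rRNA was not tested, and such removal cannot be told apart from either.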

How the data were processed

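The authors deposited 2 tables of raw read counts per base and position, 1 for each dNTP condition, with 3 libraries each. Reads were trimmed with Cutadapt, freed of duplicates by molecular identifiers, aligned to hg38 with TopHat2, which could place a read at several loci, and screened with JACUSA (versions not given in the sources used here). A listed position had at least 3 reads with T in 1 imbalanced library, or 1 in 1 balanced library, and a depth of at least 5. Reads shared with nuclear copies of mitochondrial DNA were not tested for.

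Mutated and unmutated counts were fitted with edgeR 4.0.16 (R 4.3.3; glmQLFit, glmQLFTest) for the 32284 positions that both tables list and every library read 10 times or more, with a term for each library, a replicate block on the share of mutated reads, and Benjamini-Hochberg adjustment over all positions (threshold 0.05). DESeq2 1.42.0 was an alternative. The fit was tried on simulated counts at 32284 positions, with 50 positions changed at each size. It recovered 14% of 2-fold, 68% of 4-fold, 82% of 8-fold and 98% of 16-fold changes, and 3 unchanged positions were called. The simulated counts held binomial counting error only and no further spread between replicates. The log2 change is a log2 odds ratio of mutated against unmutated reads, and the SE is its size over the root of F. Libraries are paired because each ligated RNA was divided between both conditions. As a check, deviations of log2 depth between same-numbered libraries correlated at 0.01, -0.09 and -0.16 over 417 positions. Between differently numbered libraries the correlations ran from -0.11 to 0.21. The depths thus gave no sign of the pairing, which rests on the design alone. The 95% interval of a log2 change rests on that SE, which includes the spread between replicates; the limit for a count of 0 covers counting error only.

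Positions named were the known modified positions and listed neighbours within 3 nt, the 5 highest of each base in each rRNA at depth 100 or more, the 5 highest under balanced dNTP, and any lower under imbalanced dNTP. Gene bounds are from GENCODE. The spike-in background of the study was not used. The members and lists were chosen with earlier results of these data known.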

Additional observations from a re-analysis of the deposited data

Results flagged for a closer look

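Reads with neither the reference base nor T are outside the mutation ratio. At G positions of 16S rRNA they made up 0.177% ± 0.0286 (SD, n = 3) of reads under imbalanced dNTP and 0.116% ± 0.0121 under balanced dNTP, and were higher under imbalanced dNTP in 3 of 3 replicates over 77 positions. The excess was in reads with A, at 0.130% ± 0.0118 against 0.0686% ± 0.00742, while reads with C were at 0.0475% ± 0.0179 and 0.0473% ± 0.00557. In 12S rRNA the same share was 0.303% ± 0.193 and 0.141% ± 0.0482 over 21 positions, and replicate 1 was lower under imbalanced dNTP. The difference was not tested.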

How the results depend on the processing

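The counts of passing positions moved by over 1.5 times under 3 of the criteria tried. With at least 5 reads with T, 31 positions of 12S rRNA and 192 of 16S rRNA passed; with every replicate at a ratio of 0.05 or more, 14 and 45; and with only positions listed in the balanced table, 33 and 194. A depth of 50, 5 times the input ratio and pooled input left the counts within 1.5 times. Without 1 replicate, 77 to 95 and 326 to 380 positions passed. Positions higher under imbalanced dNTP numbered 21 in 12S rRNA and 161 in 16S rRNA when Fisher's exact test had to pass in each replicate (46.9% of all tested positions), 69 and 273 with DESeq2 (75.0%), 70 and 276 at a depth of 50 (91.5%), 68 and 272 with no minimum depth (66.1%), and 24 to 32 and 190 to 212 without 1 replicate (54.2% to 56.4%). Without the replicate block, the pairing of the libraries, they numbered 84 and 300 (83.4% of all tested) and held all 347 of the fit with it. The share of reads with T in 16S minus 12S rRNA, -0.0465 percentage points, became 0.0665 with the mean of the positions' ratios, 0.00436 at a depth of 50 and 0.157 at a depth of 100, which was added after seeing the data, and ranged from -0.0784 to 0.00844 without 1 replicate. G minus C in 12S rRNA became 0.119 with the mean of ratios, and in 16S rRNA 0.541 with the mean of ratios and -0.0580 without the known positions. The difference of the rRNAs from NEAT1 shrank to -0.195 with the mean of ratios. The log2 change at m1A947 ranged from -0.19 to 0.07 without 1 replicate and was -0.11 without the replicate block, never past the threshold. Gm1370 and Gm1145 stayed past it under every alternative run, with log2 changes from 5.97 to 6.35 and from 4.72 to 5.42, and the other differences kept their direction. The causes of these shifts were not tested. With 3 pairs no exact test can pass 0.05, and depths of 55 to 73 limit m1A947 under imbalanced dNTP.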
